A study of Homo sapiens with 2 samples.

Results

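Chromatin compartments along the human genome pass through stretches whose score is neither high nor low, and these stretches are described here in HEK293T cells. The bins were selected on the deposited compartment score, which gives 1 value to each bin of 1 Mb. On each of 16 chromosomes (1, 2, 3, 6, 7, 8, 9, 10, 12, 15, 16, 17, 18, 19, 20 and 21) a bin was taken as intermediate when its score lay strictly between that chromosome's own lower and upper tertile limits. This gave 656 intermediate bins, out of 2008 bins with a score on these chromosomes and 2883 with a score in the whole series. The bins at or above the upper limit (high-score bins, 676) and at or below the lower limit (low-score bins, 676) serve as the surroundings, and 12 bins that lay exactly at a limit are among these outer classes.

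The study mapped contacts in HEK293T, a cell line from human embryonic kidney that expresses SV40 large T antigen, by in situ Hi-C, which joins and sequences pieces of DNA that touch or nearly touch inside the nucleus. It held 2 libraries of a single group, crosslinked with 1% formaldehyde for 10 min, with no treated or control group and nothing in the labels to say that they came from separate cultures. Each of the 3 deposited tables has 1 value per feature and names no library, and is taken here to hold both libraries together. There is thus no spread between replicates and no test over samples, and every interval below covers counting error only. The total number of contacts is unknown; the loop pixels on the 16 chromosomes held 13 to 349 observed contacts with a median of 74.

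Compartments are the large-scale division of chromosomes into active, gene-rich chromatin (A) and inactive, gene-poor chromatin (B), which each contact their own kind over long distances. A compartment score is usually an eigenvector of the contact map, with the A and B compartments at opposite signs. Contact domains are shorter intervals whose sequences contact one another more than their surroundings, and loops are pairs of points in closer contact than their neighbourhood, often held at convergent CTCF sites by cohesin. The sources used here do not say which sign of the deposited score is compartment A, so the classes are named by score alone. No genes were placed on the coordinates, which are of the hg19 build and counted from 1, because the gene tables at hand are of another build.

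The limits that chose the bins were set chromosome by chromosome, since each chromosome's squared scores add up to 1 and levels are therefore not comparable from one chromosome to another. The lower limit ranged from -0.147 on chromosome 21 to -0.0287 on chromosome 9, and the upper limit from 0.00483 on chromosome 2 to 0.0905 on chromosome 18. On chromosome 2, with the most scored bins (242), the intermediate bins nearest the limits scored -0.0697 and 0.00368, and the nearest bins outside scored -0.0702 and 0.00540. On chromosome 21, with the fewest (38), they scored -0.14674 and 0.0269 inside, against -0.14705 and 0.0317 outside. The neighbours on either side of a limit thus differed by a small fraction of the range, so the class is a slice of a continuous scale. The number of intermediate bins per chromosome ran from 12 on chromosome 21 to 80 on chromosome 2, with a median of 42.

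A score of 0 lay between the limits on 16 of 16 chromosomes, so the choice of bins fixes that the sign changes mostly within or beside them. Of the intermediate bins, 252 of 656 were positive (38.4%, 95% Wilson interval 34.8 to 42.2), while all 676 high-score bins were positive and none of the 676 low-score bins was. Negative bins were the majority on 11 of 16 chromosomes. Chromosome 2 had 3 positive bins among 80 (3.75%) and chromosome 17 had 19 among 26 (73.1%). Intermediate therefore meant mostly below 0 on one chromosome and mostly above 0 on another.

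The score changed sign between adjacent bins 361 times on these chromosomes. An intermediate bin stood on at least 1 side of 319 of these switches (88.4%, 84.6 to 91.3). The switch fell between an intermediate bin and a high-score bin 132 times (36.6%), between 2 intermediate bins 109 times (30.2%), and between an intermediate bin and a low-score bin 78 times (21.6%). The other 42 switches (11.6%) went directly between high-score bins and low-score bins. Chromosomes 1 (32 of 32) and 20 (8 of 8) had an intermediate bin at every switch, and chromosome 19 at 6 of 10. Counted by bin, 374 of the 656 intermediate bins (57.0%, 53.2 to 60.7) lay at a sign switch.

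Steps in score between adjacent bins are bounded by the limits that chose the classes and are given as a description. In units of the chromosome's own SD of scores, the median step was 0.248 between 2 adjacent intermediate bins, 0.784 between an intermediate bin and a high-score neighbour, and 0.775 towards a low-score neighbour. It was 0.187 between 2 high-score bins and 0.129 between 2 low-score bins, both below the value inside the intermediate class. Where the classes met directly, the median step from high-score bins to low-score bins was 1.84. The 5 steepest passages across a single intermediate bin lay on chromosomes 2 (chr2:11000001-12000000), 10 (chr10:105000001-106000000), 6 (chr6:91000001-92000000), 16 (chr16:66000001-67000000) and 19 (chr19:8000001-9000000), where the flanking bins were 2.68 to 2.99 SD apart. In the first 3 of these the intermediate bin held 2 or 3 domains, beside 2 to 4 in the high-score neighbour and 0 or 1 in the low-score neighbour. The bin on chromosome 19 held 1 domain, its high-score neighbour held none and its low-score neighbour held 3, unlike the others.

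Intermediate bins occurred in short runs. The 656 bins formed 324 runs with a median of 1 Mb and a mean of 2.02 Mb, against 182 high-score runs (median 2 Mb, mean 3.71 Mb) and 191 low-score runs (median 3 Mb, mean 3.54 Mb). Runs of a single bin made up 176 of the 324 intermediate runs (54.3%, 48.9 to 59.7), against 30.2% of high-score runs and 24.6% of low-score runs. Only 27.6% of intermediate bins (181, in 27 runs) lay in runs of 5 bins or more, against 64.1% of high-score bins and 57.8% of low-score bins. Run lengths come from the same scores as the classes, so they describe the intermediate class without testing it.

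**Figure D1:**
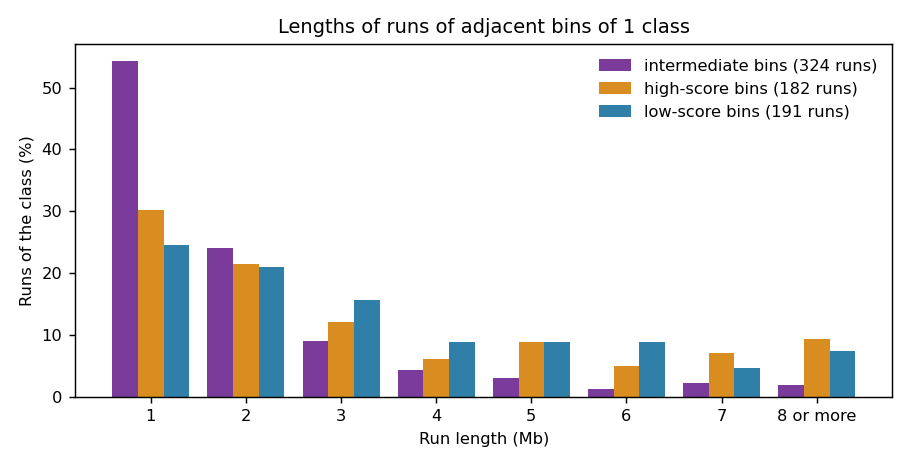
Share of runs (%, vertical axis) at each run length (Mb, horizontal axis) for intermediate bins (324 runs), high-score bins (182 runs) and low-score bins (191 runs). Single-bin runs were 54.3% of intermediate runs, against 30.2% in high-score bins and 24.6% in low-score bins.

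Intermediate runs joined unlike neighbours somewhat more often than they lay between like ones. Of the 324 runs, 165 (50.9%, 45.5 to 56.3) lay between a high-score bin and a low-score bin, as a passage from one to the other. Another 72 (22.2%) were bounded by low-score bins on both sides and 63 (19.4%) were bounded by high-score bins on both sides. The remaining 24 (7.41%) touched a chromosome end or bins without a score. A sign switch inside the run occurred in 48 of the 165 passages, and 101 of the 165 were single bins, which cannot hold one. Every passage still changes sign, inside the run or at its edge, because all high-score bins are positive and no low-score bin is.

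The domain content of a run differed little with the class of its flanks, apart from runs at gaps. Runs between high-score bins and low-score bins held 1.64 domain midpoints per Mb (exact Poisson interval 1.50 to 1.78), runs between 2 low-score bins 1.65 (1.45 to 1.86), and runs between 2 high-score bins 1.38 (1.18 to 1.60). Intervals of all 3 overlap, and the runs bounded by high-score bins, the class with the most domains, had the lowest of the 3 values. Runs at gaps or chromosome ends held 0.680 per Mb (0.471 to 0.95), below each of the others. Loop anchors showed the same split, with 1.38, 1.42 and 1.45 anchors per Mb in the runs flanked by both, by low-score bins and by high-score bins, and 0.70 at gaps or ends.

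Among the longest runs, length went with no single level of domain content. The run at chr1:55000001-66000000 (11 bins) held 20 domains and 14 loop anchors, had 64.8% of its length inside domains, and contained 3 sign switches. The run at chr2:141000001-152000000, also of 11 bins and negative throughout, held 5 domains and 2 anchors with 34.5% inside domains. The run at chr9:65000001-76000000, also of 11 bins, adjoins unscored bins and had 18.3% of its length inside its 4 domains. On the same chromosome, chr9:13000001-22000000 (9 bins, bounded by low-score bins on both sides) held 15 domains, 13 anchors and 62.6%. The runs of 8 bins at chr10:43000001-51000000 and chr17:58000001-66000000 tied for the fifth place, with 11 and 15 domains.

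Contact domains were less dense in intermediate bins than in high-score bins and more dense than in low-score bins. Placed by their midpoints, 996 domains fell in intermediate bins, or 1.52 per Mb (1.43 to 1.62), against 1365 in high-score bins (2.02 per Mb, 1.91 to 2.13) and 460 in low-score bins (0.680 per Mb, 0.620 to 0.746). The ratio of densities was 0.752 (exact 95% interval 0.692 to 0.817) over high-score bins and 2.23 (2.00 to 2.50) over low-score bins. Over all other scored bins together it was 1.12 (1.04 to 1.22), since the middle lay somewhat above the average of the outer classes (1.35 per Mb). These domains come from the same contact map as the score, and domains of a chromosome are not independent of one another, so the intervals say nothing about another culture.

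Within single bins the counts ranged widely. No domain midpoint fell in 148 intermediate bins (22.6%, 19.5 to 25.9), against 15.8% of high-score bins and 54.3% of low-score bins. The bin with the most was chr17:48000001-49000000 with 8 domains, a single intermediate bin between a high-score bin and a low-score bin. It was followed by chr1:94000001-95000000 and chr10:116000001-117000000 with 6 each, and by chr6:52000001-53000000 and chr10:26000001-27000000, the first in genome order of the 5 bins with 5. Of the 8 bins with 5 or more domains, 6 had a positive score (75%, 40.9 to 92.9), beside 38.4% of all intermediate bins.

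The order of the classes repeated on most chromosomes. Intermediate density lay above that of low-score bins on 16 of 16 chromosomes and between the outer classes on 14. On chromosome 16 it was above both, at 1.22 per Mb (0.841 to 1.72) against 1.04 (0.689 to 1.50) in high-score bins and 0.630 (0.367 to 1.01) in low-score bins. On chromosome 21 the values were 1.17, 1.00 and 0.231 per Mb in the intermediate bins, high-score bins and low-score bins. The intervals of the intermediate bins and high-score bins overlap on both. Intermediate bins of chromosome 10 were the densest, at 2.34 domains per Mb, and those of chromosome 18 the sparsest, at 0.920.

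**Figure D2:**
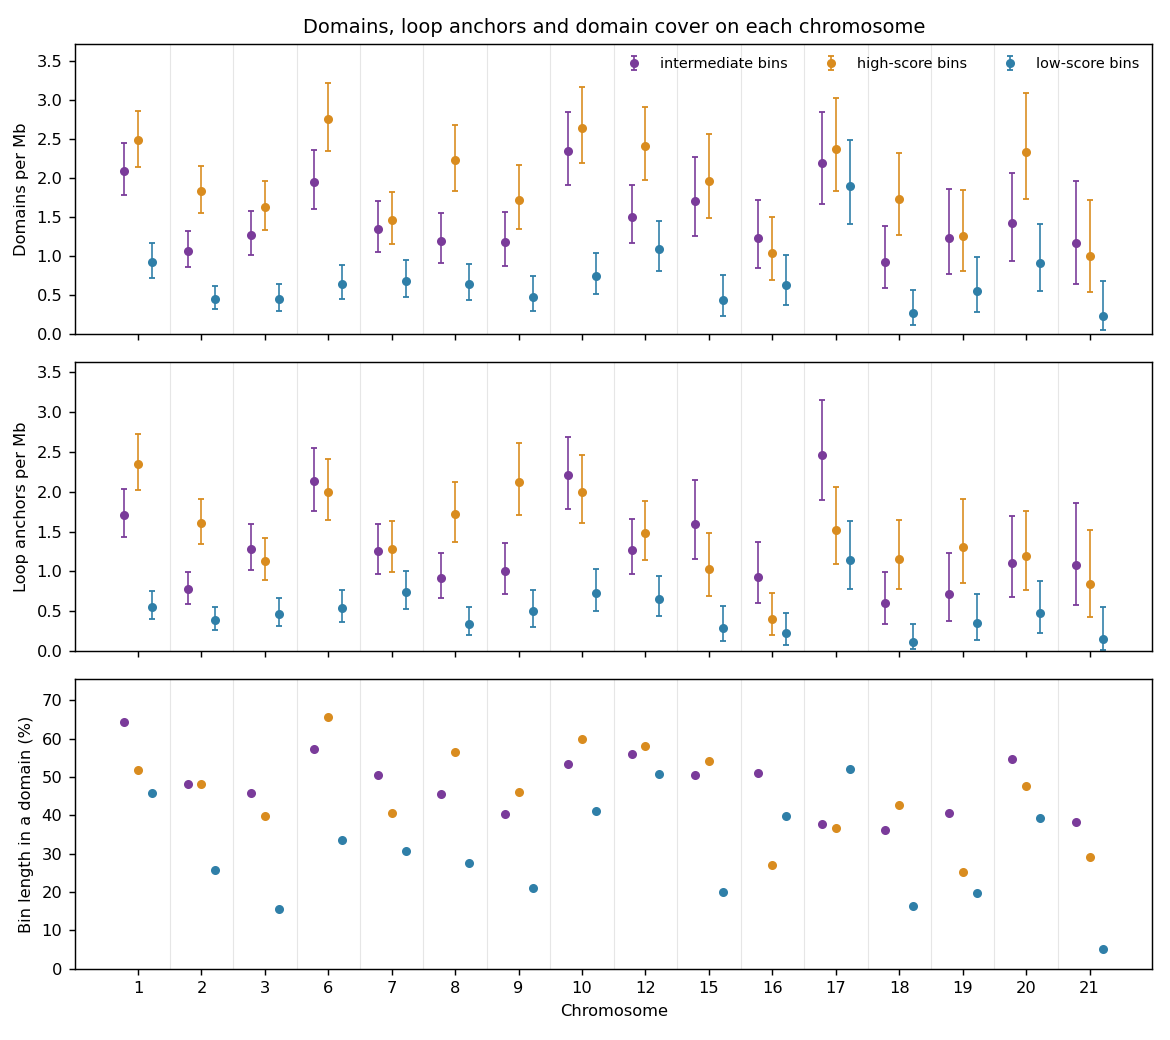
Domain midpoints per Mb (top), loop anchors per Mb (middle) and share of bin length inside a domain (%, bottom) on each chromosome, for intermediate bins, high-score bins and low-score bins in that order; bars are exact Poisson 95% intervals. Intermediate domain density lies above that of low-score bins on 16 of 16 chromosomes, while anchor density lies above that of high-score bins on 7.

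Finer slices of the score showed how the middle joins its surroundings. Each class was cut by rank into 3 groups per chromosome, giving 9 groups in order of score. Domain density increased through the 3 intermediate groups, at 1.30, 1.45 and 1.80 per Mb, from a neighbouring value of 0.925 in the uppermost low-score group to one of 2.03 in the lowermost high-score group. Anchors did not follow the same course: the intermediate groups had 1.13, 1.20 and 1.72 per Mb, and the 3 groups above them had 1.74, 1.40 and 1.61. The interval of the top intermediate group (1.55 to 1.91) overlaps those of all 3, and only just that of the middle one (1.25 to 1.56). Domain cover was highest in the sixth of the 9 groups, the top intermediate one, at 51.7%, with 51.5% in the group above it and 43.9% in the group of the highest scores.

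**Figure D3:**
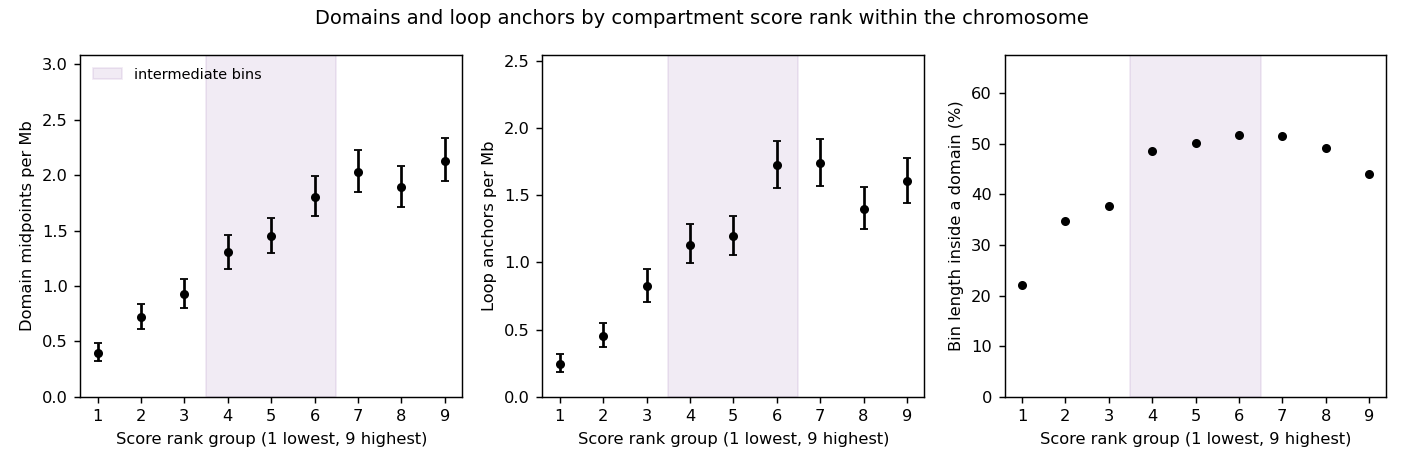
Domain midpoints per Mb, loop anchors per Mb and share of bin length inside a domain (%) in 9 groups of bins ordered by score rank within the chromosome, with exact Poisson 95% intervals on the densities; the shaded groups are the intermediate bins. Domain density climbs through the shaded groups from 1.30 to 1.80 per Mb and cover is flat there at 48.5 to 51.7%.

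Domains centred in intermediate bins were, at the median over all chromosomes, of intermediate length. Their median length was 250 kb (235 to 270, with quartiles of 150 and 420 kb), against 195 kb (180 to 205) in high-score bins and 340 kb (305 to 380) in low-score bins. The median was above that of high-score bins on 15 of 16 chromosomes, the exception being chromosome 15 with 200 kb against 275 kb. It was also above that of low-score bins on chromosomes 8 (307.5 against 285 kb), 9 (330 against 300 kb) and 21 (275 against 180 kb), so the order of the 3 classes held on 12 of 16. Domains over 1 Mb numbered 43 of 996 in intermediate bins, 9 of 1365 in high-score bins and 60 of 460 in low-score bins. Domains up to 1 Mb thus made up 95.7%, 99.3% and 87.0% of these classes, in the same order. The caller's own score was similar across classes, with medians of 1.20, 1.21 and 1.16 in intermediate, high-score and low-score bins.

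**Figure D4:**
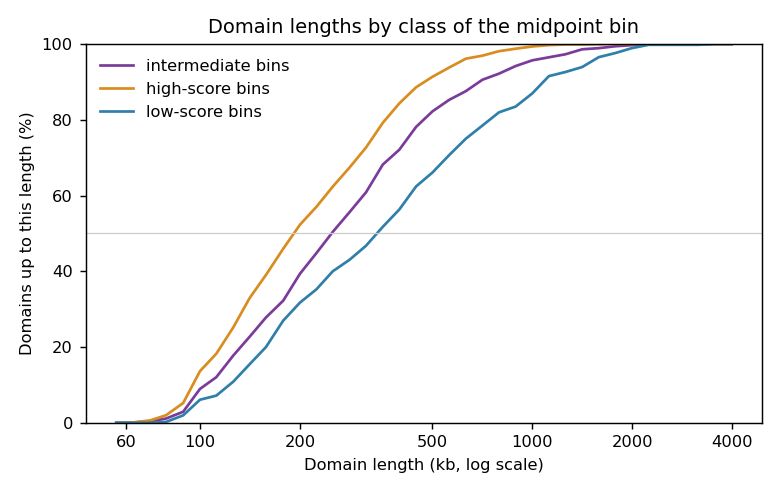
Cumulative share of domains (%) up to each length (kb, log scale), by class of the bin at the domain's midpoint: intermediate bins, high-score bins and low-score bins. Up to 200 kb lie 39.4% of intermediate domains, against 52.3% in high-score bins and 31.7% in low-score bins.

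With fewer but longer domains, intermediate bins had a similar share of their length inside domains to high-score bins. The mean share was 50.1% (median 53.5%, quartiles 20.5 and 79.0%), against 48.2% (median 50.3%, quartiles 26.0 and 71.5%) in high-score bins and 31.5% (median 14%, quartiles 0 and 67.1%) in low-score bins. The difference of 1.94 percentage points from high-score bins is small beside the spread among bins and was positive on 9 of 16 chromosomes, and its sign turned (-4.73) when only domains above the median caller score were kept. Cover exceeded that of low-score bins on 15 of 16 chromosomes, the exception being chromosome 17 with 37.8% against 52.1%. Chromosome 1 had the most cover in intermediate bins (64.3%) and chromosome 18 the least (36.3%).

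The domains of highest caller score in intermediate bins were between 200 and 760 kb long, 3 of the 5 above the class median of 250 kb. They lay at chr18:18510001-18760000 (250 kb, caller score 1.86), chr6:126100001-126300000 (200 kb, 1.85), chr9:81785001-82545000 (760 kb, 1.84, with 4 smaller domains inside it), chr10:92645001-93020000 (375 kb, 1.82) and chr3:16315001-16600000 (285 kb, 1.82). Those on chromosomes 6, 10 and 3 had a loop at their corner, of 108, 99 and 96 observed contacts. The 3 longest were chr2:220560001-222845000 (2285 kb), chr16:72140001-74330000 (2190 kb) and chr2:40030001-42045000 (2015 kb). These had caller scores of 0.740, 0.775 and 0.734, and none had a corner loop. The longest domains thus scored below the class median, while the best-scored ones were all shorter than 1 Mb.

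Domains that ran on into a neighbouring bin did so out of the class about as often as the borders of the bins led out of it. Of the 996, 328 (32.9%, 30.1 to 35.9) extended over a bin border, against 24.8% of domains in high-score bins and 46.1% in low-score bins. Of those 328, 164 stayed within intermediate bins, 93 reached a high-score bin and 71 a low-score bin. For comparison, 51.6% of the scored sides of intermediate bins adjoin another intermediate bin. In high-score bins 74.3% of such domains stayed within the class, beside 74.1% of bin sides, and in low-score bins 57.1%, beside 72.8%. A long domain can cross several borders, so a share of domains and a share of bin sides are not the same quantity.

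Borders between adjacent bins were crossed by a domain at 51.0% (487 of 955) where at least 1 of the bins was intermediate, against 38.4% (392 of 1021) where neither was. By kind of border, the share was 52.4% between 2 intermediate bins, 53.8% between an intermediate and a high-score bin and 46.9% between an intermediate and a low-score bin. Borders between 2 high-score bins were crossed at 47.6%, those between 2 low-score bins at 28.7%, and direct borders between the outer classes at 42.9% (18 of 42). Borders with an intermediate bin were crossed at nearly the same rate where the sign switched (168 of 319, 52.7%) as where it did not (319 of 636, 50.2%).

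The 101 intermediate bins that stood alone between a high-score bin and a low-score bin show the passage directly. They held 1.90 domains per Mb (1.64 to 2.19), against 2.29 (2.00 to 2.60) in their high-score neighbours and 0.931 (0.752 to 1.14) in their low-score neighbours. Paired bin by bin, the intermediate bin had more domains than its low-score neighbour in 67 cases and fewer in 11, and more than its high-score neighbour in 33 and fewer in 50. These bins were closer to their high-score neighbours than to their low-score neighbours, in anchors as well as domains, with 1.48, 1.54 and 0.495 anchors per Mb in the intermediate, high-score and low-score bins.

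Mean domain cover declined across these bins towards the low-score side. The 500 kb of the intermediate bin nearer the high-score neighbour were covered at 56.2% and the 500 kb nearer the low-score neighbour at 45.8%, beside 53.6% in the adjoining high-score bin and 40.5% in the adjoining low-score bin. Single bins varied around this mean course: 51 were more covered on the side of high-score bins, 43 on the side of low-score bins, and 7 were equal. In the 30 passages of 2 intermediate bins, the bin beside the high-score neighbour had 51.8% and the other 50.4%. The adjoining high-score bins had 44.6% and the adjoining low-score bins 36.6%, so both intermediate bins were on average more covered than either neighbour. The bin beside the high-score neighbour was the more covered in 18 of these passages and the less covered in 8, and 4 were equal.

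**Figure D5:**
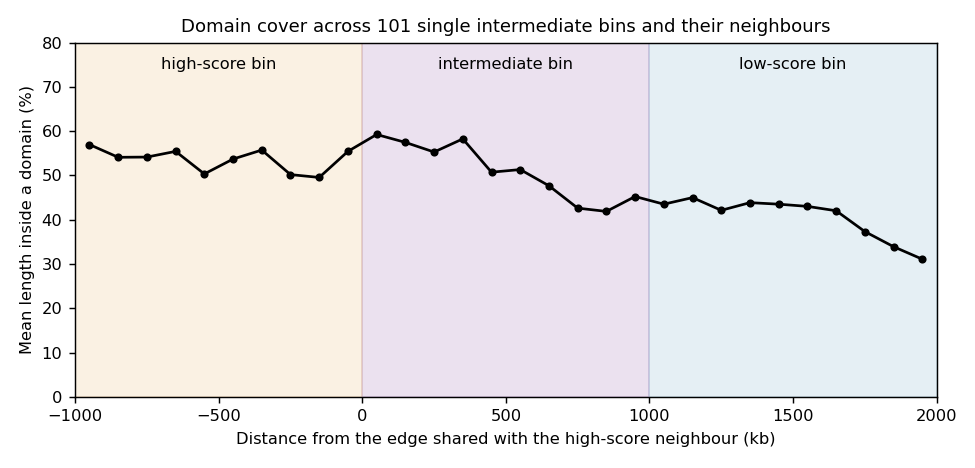
Mean share of each 100 kb part inside a domain (%), against distance (kb) from the edge shared with the high-score neighbour, for 101 single intermediate bins (centre) with their high-score neighbours (left) and low-score neighbours (right), all turned the same way. The mean is 56.2% over the 500 kb nearer the high-score bin and 45.8% over the 500 kb nearer the low-score bin.

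Loop anchors were dense in intermediate bins relative to their domains. Counting an anchor once for each loop it serves, 886 anchors fell in intermediate bins, or 1.35 per Mb (1.26 to 1.44), against 1069 in high-score bins (1.58 per Mb, 1.49 to 1.68) and 343 in low-score bins (0.507 per Mb, 0.455 to 0.564). The ratio was 0.854 (0.780 to 0.935) over high-score bins and 2.66 (2.35 to 3.02) over low-score bins. These 886 anchors belong to 515 loops, and both anchors of a loop often fall in the same bin. Anchors are thus not independent counts, and all intervals given for anchor densities and their ratios are too narrow. There were 0.890 anchors per domain in intermediate bins, against 0.783 in high-score bins and 0.746 in low-score bins. The intermediate class held 38.6% of the anchors and 35.3% of the domains of these chromosomes, on 32.7% of the scored bins. Counting each anchor position once gave 843 positions in intermediate bins, 1008 in high-score bins and 328 in low-score bins.

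Chromosomes differed in how their intermediate anchor density stood beside that of high-score bins. Intermediate bins had more anchors per Mb than low-score bins on 16 of 16 chromosomes, and more than high-score bins on 7 (chromosomes 3, 6, 10, 15, 16, 17 and 21). Chromosome 17 had the highest density, 2.46 per Mb (1.90 to 3.14), against 1.52 (1.09 to 2.06) in its high-score bins and 1.15 (0.780 to 1.63) in its low-score bins. The intervals of its intermediate bins and high-score bins overlap. Its intermediate anchors include both anchors of several loops over 2 Mb, described under other observations. Its density without them was not computed, so its first place and its excess over high-score bins are given with those loops counted. Chromosome 9 showed the reverse order, with 1.00 per Mb (0.714 to 1.36) in intermediate bins against 2.12 (1.70 to 2.61) in high-score bins. The lowest density in intermediate bins was 0.60 per Mb, on chromosome 18.

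Bins rich in anchors were not always rich in domains. The most anchors fell in chr3:98000001-99000000, with 9 anchors and 2 domains. Next came chr1:94000001-95000000, chr6:132000001-133000000, chr10:90000001-91000000 and chr15:81000001-82000000, each with 8 anchors, and with 6, 4, 2 and 5 domains. No anchor fell in 308 intermediate bins (47.0%, 43.2 to 50.8), against 41.9% of high-score bins and 74.6% of low-score bins.

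Loops with an anchor in an intermediate bin were close to those of both outer classes in enrichment. The 515 such loops had a median span of 310 kb (290 to 350), against 250 kb (230 to 270) for the 579 loops touching high-score bins and 310 kb for the 208 touching low-score bins. Their median enrichment, the observed contacts over those expected from the surrounding donut, was 2.75 (2.69 to 2.83), against 2.70 in high-score bins and 2.85 in low-score bins. A loop that joins 2 classes counts in both, so these groups share loops, and a loop between classes has to cross a bin border. Where both anchors lay in 1 class, the median span was 270 kb (240 to 290) in intermediate bins, 230 kb (200 to 250) in high-score bins and 260 kb (220 to 305) in low-score bins, with intervals that overlap.

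Most of these loops stayed inside the class. Both anchors were intermediate in 371 of 515 (72.0%, 68.0 to 75.7), with a median of 78 contacts. Another 80 loops joined an intermediate bin to a high-score bin (median span 460 kb) and 64 to a low-score bin (620 kb). Many loops lie within 1 bin, where both anchors share a class by construction. Among the 239 loops that joined 2 different bins, 95 (39.7%, 33.8 to 46.1) had both anchors intermediate, against 58.2% (124 of 213) for high-score bins and 33.6% (37 of 110) for low-score bins.

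Loops at the corners of domains were found for 279 of the 996 domains in intermediate bins (28.0%, 25.3 to 30.9), where a loop counts when its anchors lie within 50 kb, or 0.2 of its length if larger, of both domain ends. The share was 25.8% (23.5 to 28.2) in high-score bins and 20.7% (17.2 to 24.6) in low-score bins. The intervals of the intermediate bins and high-score bins overlap, while those of the intermediate bins and low-score bins do not. Chromosome 6 had a corner loop at 42.1% of its intermediate domains, and chromosome 18 at 13%.

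The strongest loops of up to 2 Mb with both anchors intermediate and at least 20 contacts were mostly away from domain corners. The highest enrichment, 7.75-fold (exact Poisson interval 5.27 to 11.0) on 31 contacts, joined chr10:47650001-47655000 to chr10:48355001-48360000. A pair of loops on chromosome 17 followed, from chr17:43650001-43660000 to chr17:44570001-44580000 (7.41-fold on 50 contacts) and from chr17:43660001-43665000 to chr17:44355001-44360000 (6.64-fold on 24). The loop from chr21:28220001-28225000 to chr21:29070001-29075000 (6.19-fold on 37 contacts) was the only one of the 5 at a domain corner. The fifth spanned 35 kb, from chr15:32935001-32940000 to chr15:32970001-32975000 (5.77-fold on 74 contacts). Set against whichever of the 4 expectations was highest, the 5 loops were 4.01-, 4.38-, 4.75-, 4.47- and 4.57-fold enriched, in the order given, so the loop on chromosome 10 then had the lowest value of the 5.

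Intermediate bins also differed among themselves by sign and by position. Within a chromosome the positive ones are by definition the higher-scored ones. The split by sign is therefore another cut of the score order shown in the finer slices above. Positive intermediate bins held 1.84 domains per Mb (1.68 to 2.02) and 1.73 anchors per Mb, against 1.32 (1.21 to 1.43) and 1.11 in negative ones. Domains were shorter in the positive bins, with a median of 220 kb against 275 kb, and the share of length inside domains was alike (50.4% against 49.95%). Signs are spread unevenly over chromosomes, so these pooled values mix sign with chromosome. Within chromosomes, domain density was higher in the positive bins on 13 of 16 and lower on chromosomes 2, 8 and 10, and anchor density was higher on 12 of 16. Weighting each chromosome by its number of intermediate bins gave 1.68 domains and 1.61 anchors per Mb in positive bins, against 1.37 and 1.20 in negative ones, a narrower gap than the pooled one. Bins at a sign switch held 1.68 domains per Mb (1.55 to 1.82), against 1.30 (1.18 to 1.45) in bins away from one, and were the denser in domains on 13 of 16 chromosomes. Anchors hardly differed in this split. Their density was higher at a switch on 9 of 16 chromosomes and lower on 7. With the same weighting of chromosomes it was 1.36 per Mb at a switch and 1.32 away from one. Single-bin runs held 1.65 per Mb, runs of 2 to 4 bins 1.51 and runs of 5 or more 1.40, with intervals that overlap between the shortest and the longest.

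Bins beside unscored sequence stood apart from the rest. The 24 intermediate bins next to a bin without a score or at a chromosome end held 11 domains (0.458 per Mb, 0.229 to 0.820), had 10.5% of their length inside domains, and 17 of them (70.8%) had no domain midpoint. How much of such a bin could be mapped is not given in the deposited tables, and its part in these values was not tested. Without the bins beside a gap or end in any class, the ratio of domain density to high-score bins was 0.757 and that to low-score bins 2.24.

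Stretches of adjacent intermediate bins with neither a domain midpoint nor a loop anchor numbered 86 and held 110 bins, and 74 of them were a single bin. These 110 bins were 16.8% of intermediate bins (14.1 to 19.8). Bins with neither made up 12.3% of high-score bins and 49.3% of low-score bins. The longest stretch was chr9:65000001-71000000 (6 bins), within the run that adjoins unscored bins. It was followed by chr12:126000001-131000000 (5 bins, bounded by high-score bins at both ends of its run), chr2:1-4000000 and chr2:144000001-148000000 (4 bins each) and chr3:94000001-97000000 (3 bins). The stretches on chromosome 12 and at the start of chromosome 2 had 0% of their length inside any listed domain. Those at chr2:144000001-148000000 and on chromosome 3 were partly covered, at 13% and 14.7%, by domains centred elsewhere.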

How the data were processed

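In situ Hi-C of HEK293T cells was analysed from 3 deposited tables, which name no library. They are taken to hold both libraries together, combined in a way the sources used here do not state. The submitters' processing notes name FastQC 0.11.7, BWA 0.7.8, Picard and the hg19 build, with no roles. The compartment table holds 1 score per 1 Mb bin, as deposited, by a method and with a sign convention for which nothing is stated. The domain table lists the authors' contact domains on 5 kb bins, each with the caller's score; no source here names the caller. The loop table, made with HiCCUPS at 5 and 10 kb per the deposited file's name, holds per the file headers a count of contacts observed at every loop and 4 expected contact signals. Domains and loops are listed only if they passed a caller's threshold. Depth is known only from the loop counts.

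Tertile limits were computed on each chromosome at exact rank positions with Python 3.11.15, numpy 2.4.6, pandas 2.3.3 and scipy 1.17.1. Domains were placed by midpoint and anchors by centre, every bin was taken as 1 Mb long, including the last of a chromosome, and cover is the union of domains. Enrichment is the ratio of the observed count to the deposited donut signal. Intervals at 95% are Wilson for shares, exact Poisson for densities, exact binomial for ratios of densities and order-statistic for medians. The interval for ratios was tested on simulated independent Poisson counts only. That setting lacks the pairing of anchors in loops and cannot show that the interval holds for anchors. The bins and the named regions were chosen with earlier results of these data known. Named regions are the chromosome extremes, the bins next to the limits on the chromosomes with the most and fewest scored bins, the 5 longest runs, the 5 bins with most domains and with most anchors, the 5 longest empty stretches, the 5 best-scored and 3 longest domains, the 5 strongest loops and the 5 steepest passages. Sequences and genes are not reported here.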

Additional observations from a re-analysis of the deposited data

How the results depend on the processing

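No paired analysis was possible because every table has 1 value per feature and names no library. For the same reason neither library could be left out. Of 99 values recomputed under 11 settings other than leaving out a chromosome, 87 stayed within the counting interval of the reported value, and so did 271 of 272 values with 1 chromosome left out. Part of this agreement was fixed in advance. A value without 1 chromosome shares most of its data with the reported one, and dropping domains that lie inside a larger one cannot change cover. For cover, the interval treated the mean share as if it were a count of bins. Narrower limits, at the 0.4 and 0.6 quantiles, gave 66.5% of switches with an intermediate bin, 34.1% positive bins, 66.4% single-bin runs, and ratios to low-score bins of 1.96 for domains and 2.22 for anchors; narrower limits leave fewer bins in the class by construction. Taking the bins of smallest absolute score gave 48.7% positive bins and an anchor ratio to all other bins of 1.42. Domains above the median caller score covered 22.1% of intermediate length, 41.8% of them had a corner loop, and the difference in cover from high-score bins turned to -4.73 percentage points; fewer domains are kept by construction, and the cause of the turn was not tested. Keeping only loops of 10 kb anchors gave a median enrichment of 2.65, and a corner tolerance of 25 kb gave 24.4% of domains with a corner loop. Counting each anchor position once, a choice made after seeing the data like the differences from high-score bins, gave a ratio of 0.862 to that class.

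With 1 chromosome left out, the lowest and highest values were 36.6 and 43.2% for the positive share (the higher one without chromosome 2) and 87.2 and 89.4% for switches. They were 0.736 and 0.773 for domain density and 0.824 and 0.906 for anchor density over high-score bins, and 2.16 and 2.37 for domains and 2.54 and 2.79 for anchors over low-score bins. The difference in cover from high-score bins ran between 0.527 and 2.94 percentage points. The total depth is unknown, so a bin without a listed domain cannot be told apart from one whose contacts were too few for the caller.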

Other observations

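Loops over 2 Mb were a small group: 33 of the 515 loops with an intermediate anchor (6.41%) spanned more than 2 Mb, against 29 of the 579 loops touching high-score bins and 14 of the 208 touching low-score bins. The longest of the 33, on chromosome 1, spanned 227.72 Mb on 28 contacts and joined a high-score bin to an intermediate one. Both anchors were intermediate in 16 of the 33, and the longest of these, on chromosome 12, spanned 99.85 Mb on 24 contacts. Loops over 2 Mb count in the anchor densities above. With loops of up to 2 Mb only, the ratio of anchor density to high-score bins was 0.846. None of the 16 lay at a domain corner, and neither did any other loop over 2 Mb on these chromosomes. The longest listed domain there was 3505 kb, so a corner was out of reach for the longest of these loops. The median enrichment of the 16 over the donut expectation was 15.8, on a median of 22.5 contacts. Expected contacts at such distances are few, so these ratios are not comparable with those of short loops.

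Of the 16, 4 shared the anchor chr17:62910001-62920000. Its partners were chr17:43650001-43660000 (19.3 Mb away, 53 contacts), chr17:44240001-44250000 (32 contacts), chr17:44290001-44300000 (37 contacts) and chr17:44360001-44370000 (18.6 Mb away, 85 contacts). Their enrichment ran from 17.4 to 51.9 over the donut and from 3.24 to 12.4 over the highest of the 4 expectations. The first partner was also an anchor of the second-strongest loop of up to 2 Mb named above. Another 5 of the 16, on the same chromosome, joined positions between chr17:15640001-15650000 and chr17:15770001-15780000 to positions between chr17:18530001-18540000 and chr17:20590001-20600000, on 13 to 23 contacts each. These groups were picked after their values were seen.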
